A study of Mus musculus with 11 samples.

Results

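Receptors for acetylcholine, glutamate, GABA, glycine, serotonin, ATP and noradrenaline were examined in whole adrenal glands of castrated and intact mice. Members were chosen by gene symbol: the subunits of nicotinic acetylcholine, ionotropic glutamate, GABA-A, glycine and P2X receptors, and the metabotropic glutamate, serotonin and adrenergic receptors. The names matched 94 of the 23337 gene symbols in the count table, and 39 of them had 10 or more counts in at least 5 of the 11 libraries and were kept. The animals were males of Hsd:Athymic Nude-Foxn1nu, a strain without a normal thymus. All animals had received VCaP cells, a human prostate cancer line, at study week 0 and an age of about 5 to 6 weeks. They were allocated at week 7 to an intact group (5 libraries) or an orchiectomized group, called ORX (6 libraries), and killed at week 15. All groups thus carried the xenograft inoculum and the nude mutation, and no group without VCaP cells was analysed here. The labels do not say that each library came from its own mouse, so p-values measure the spread between these libraries, which may be partly technical.

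As background, chromaffin cells of the adrenal medulla are modified sympathetic neurons: preganglionic nerve endings release acetylcholine onto nicotinic receptors, which are pentameric cation channels, and the resulting calcium entry releases adrenaline and noradrenaline. Ionotropic glutamate, P2X and the ionotropic serotonin receptors are also ligand-gated cation channels, whereas GABA-A and glycine receptors pass chloride. Adrenergic receptors are coupled to G proteins and read out catecholamines in blood vessels, fat and the gland itself.

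Total counts per library lay between 11368447 and 15029582. ORX 6 stood apart in the balance of long and short transcripts: against the mean of the rest of ORX, its genes deviated by a median of 0.66 log2 units in the tenth of genes with the shortest exons and -0.65 in the tenth with the longest. In both groups of genes the medians of the other libraries were between -0.31 and 0.29. Intact 3 had the highest mean log2 CPM (counts scaled to library size) of 10 fat markers, 9.63, against 7.82 to 8.97 in the other intact libraries. The tissue label was borne out by the markers: the defining cortical and medullary genes were present in all libraries, with 32171 to 90204 CPM summed over 10 cortex markers and 7510 to 29909 CPM over 14 chromaffin markers. Of the marker lists, cortex had 3 genes higher and 1 lower of 10, glia 1 lower of 10 (Gfap), and macrophage and endothelium none past the test of 8 each. Beside them, 3.03% of all tested genes were higher and 3.18% lower. None of the 68 markers in the 7 cell type lists was at 0 in every library. In these bulk samples, fewer cells of a type and less RNA per cell cannot be told apart.

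Of the 39 receptor genes, 5 were lower in ORX and 0 were higher (edgeR's quasi-likelihood test, Benjamini-Hochberg adjusted p under 0.05 over all 14139 genes tested). They were the alpha-adrenergic receptors Adra1d and Adra1a, the nicotinic subunit Chrnb1, the serotonin receptor channel Htr3a and the NMDA receptor subunit Grin2c. Over all tested genes 6.21% passed, 3.18% lower and 3.03% higher. Libraries of the groups did not overlap for 2 receptor genes, Adra1d and Chrnb1, both lower, beside 5.28% of all tested genes (2.36% lower and 2.92% higher). At an unadjusted p under 0.05, 1 receptor gene was higher (Gria3) and 11 were lower, beside 10.7% higher and 12.2% lower of all tested genes (22.9% in both directions). With DESeq2 0 were higher and 6 lower, where 5.3% of all genes were higher and 6.22% lower (11.5% in all). With limma voom 1 was higher, again Gria3, and 8 were lower, where 6.8% of all genes were higher and 7.74% lower (14.5% in all). In 26 of 39 the fold change was below 0, and the median log2 fold change was -0.20, beside 0.01 over all tested genes. In 24 of 39 the log2 fold change was within 0.5 of 0. All 39 passed the filter on low counts that precedes the test. The minimum of 10 counts was reached in at least 3 intact libraries by 38 of them, and by Adra2c in 6 ORX libraries and 1 intact library.

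**Figure D1:**
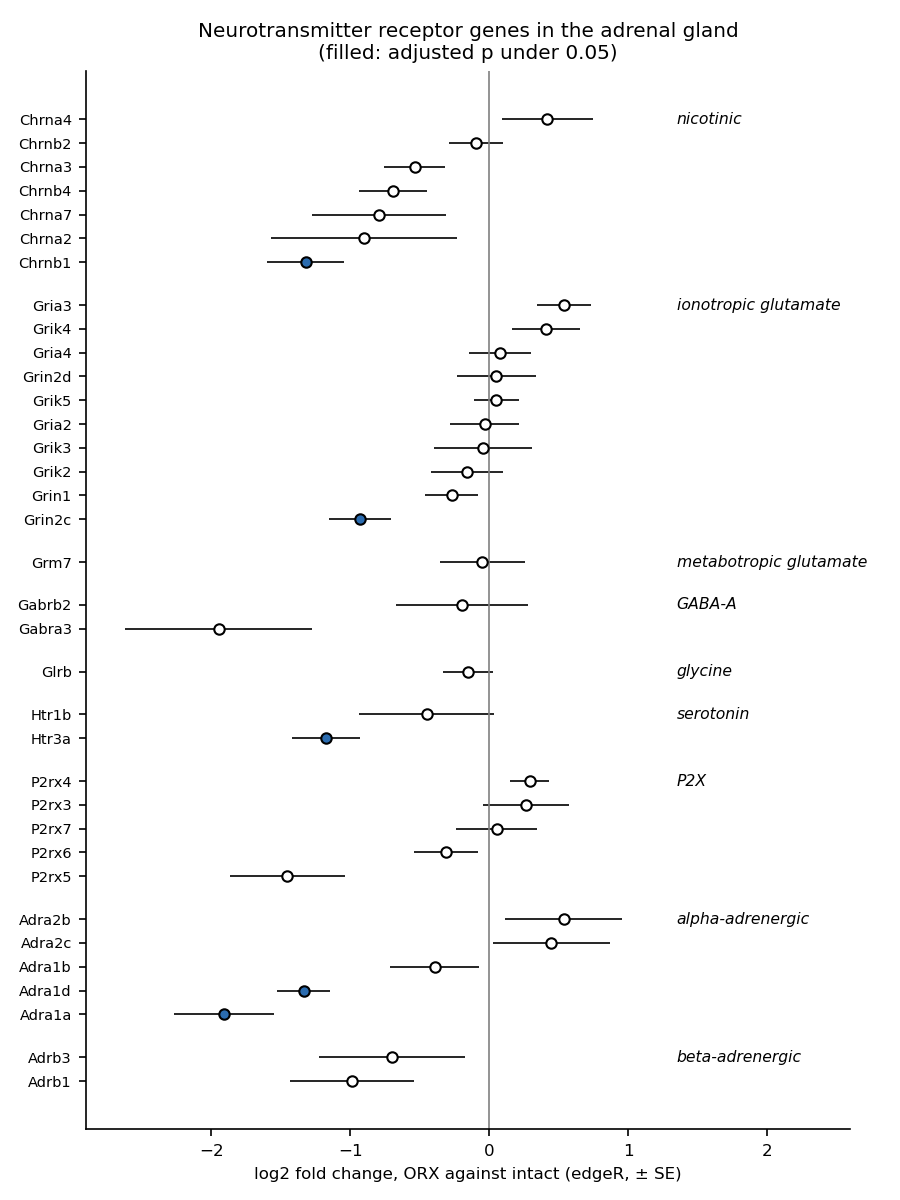
Each circle is the log2 fold change of 1 of 35 plotted receptor genes, ORX against intact (horizontal axis), with its standard error as a bar, grouped by receptor class. Filled circles mark the 5 genes with an adjusted p under 0.05, all on the lower side, from -0.93 for Grin2c to -1.91 for Adra1a.

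Levels can be compared between genes only per length, here as CPM per kilobase of annotated exons. The highest was Adrb3, the beta-adrenergic receptor of fat cells, with a mean of 40.7 CPM per kilobase over all libraries. Adra1d (8.56), the kainate receptor subunit Grik5 (8.44), Chrna3 (8.43), the ATP-gated channel P2rx4 (7.22), Gria3 (7.09) and Grin2c (7.07) followed, and their ranges over libraries overlapped. Most receptor genes were sparse: 9 of 39 lay above 5.88 CPM per kilobase, the median of 12847 tested genes with a length. Except for Grm7, the metabotropic glutamate receptors were all under the count minimum, as were all glycine receptor alpha subunits.

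**Figure D2:**
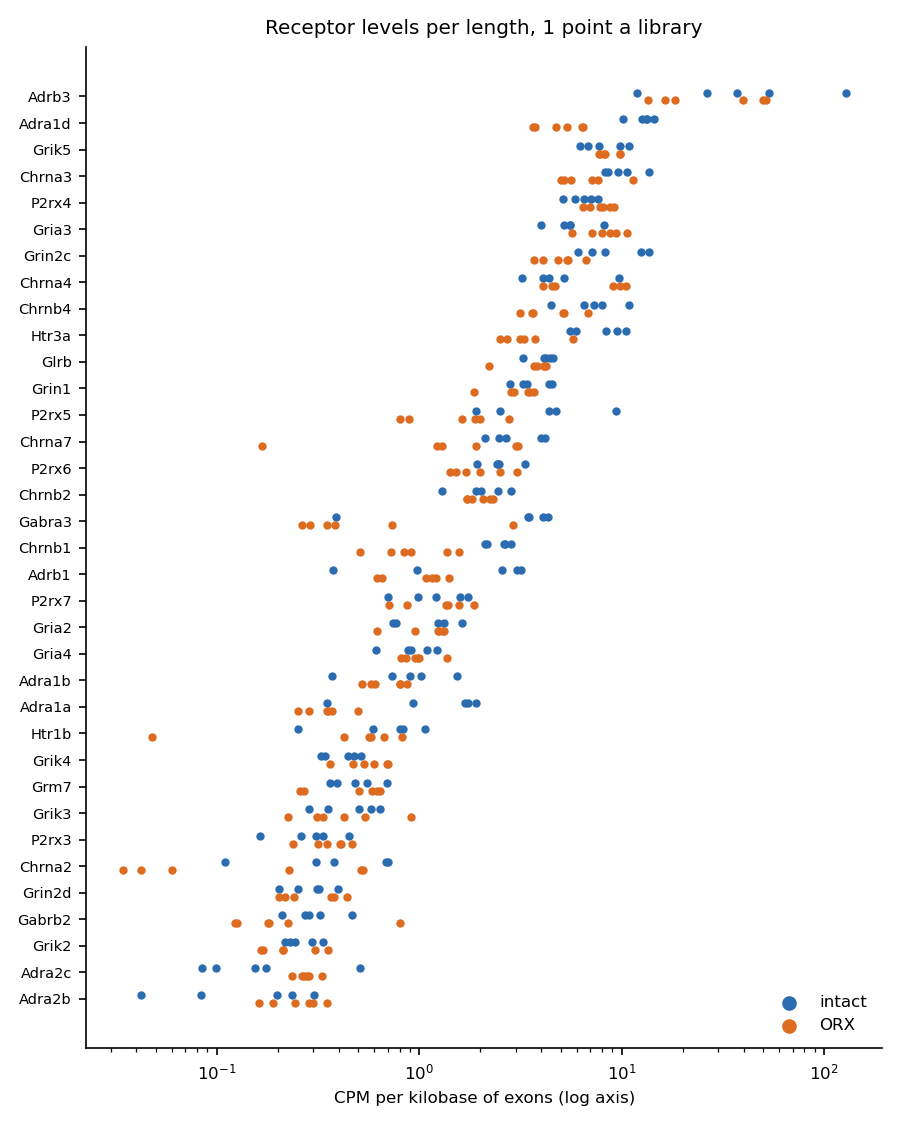
Each point is 1 library, at the level of a receptor gene in CPM per kilobase of exons (horizontal log axis), with intact in blue and ORX in orange, for 35 receptor genes ordered by their mean. Adrb3 stands at the top with a mean of 40.7, and the points of Adra1d separate by group.

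Nicotinic receptors were represented by 7 of 16 genes. Chrna3 and Chrnb4 encode the subunits of the ganglionic receptor through which splanchnic nerves drive chromaffin cells, and they lie 1591 bases apart on chromosome 9 (GRCm38; Chrna3 55010111 to 55026562, Chrnb4 55028154 to 55048779, both on the minus strand). Chrnb1, which encodes a subunit of the muscle receptor, lies on chromosome 11 (69784036 to 69795943, minus strand). Promoters, 250 bases before to 50 after the start, are shown for the neighbours Chrna3 and Chrnb4, which had their highest and lowest libraries in common, and for Chrnb1 and the NMDA receptor gene Grin2c, which passed the test. They are RefSeq sequences of GRCm38.p6 on the minus strand, written 5′ to 3′, with matches to GGGCGG on either strand in capitals.
Chrna3, chr9:55026513-55026812: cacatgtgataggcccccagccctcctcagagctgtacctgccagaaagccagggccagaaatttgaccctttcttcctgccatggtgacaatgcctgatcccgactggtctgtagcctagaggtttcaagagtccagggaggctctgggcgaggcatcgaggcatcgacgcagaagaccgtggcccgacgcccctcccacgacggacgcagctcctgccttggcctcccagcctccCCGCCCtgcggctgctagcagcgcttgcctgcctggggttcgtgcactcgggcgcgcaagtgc
Chrnb4, chr9:55048495-55048794: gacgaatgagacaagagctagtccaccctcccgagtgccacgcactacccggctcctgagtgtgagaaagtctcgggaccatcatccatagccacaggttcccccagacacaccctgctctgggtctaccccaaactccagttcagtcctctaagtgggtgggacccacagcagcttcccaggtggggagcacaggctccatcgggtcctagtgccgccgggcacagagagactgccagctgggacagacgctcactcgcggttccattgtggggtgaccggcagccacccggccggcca
Chrnb1, chr11:69795888-69796187: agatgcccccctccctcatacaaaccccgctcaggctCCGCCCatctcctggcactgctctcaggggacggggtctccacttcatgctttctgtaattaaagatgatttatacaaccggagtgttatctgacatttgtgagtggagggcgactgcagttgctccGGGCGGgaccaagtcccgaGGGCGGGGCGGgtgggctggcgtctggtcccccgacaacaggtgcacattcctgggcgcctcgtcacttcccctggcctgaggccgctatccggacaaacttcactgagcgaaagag
Grin2c, chr11:115267194-115267493: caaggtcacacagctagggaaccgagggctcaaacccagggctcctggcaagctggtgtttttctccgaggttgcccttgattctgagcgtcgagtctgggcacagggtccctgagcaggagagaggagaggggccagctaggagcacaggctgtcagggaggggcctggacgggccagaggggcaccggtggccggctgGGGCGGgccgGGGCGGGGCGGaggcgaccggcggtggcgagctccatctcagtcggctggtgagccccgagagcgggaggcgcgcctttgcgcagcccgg

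The GC box GGGCGG, the core of sites bound by Sp1, matched 4 times in the Chrnb1 promoter and 3 times in that of Grin2c, with 2 overlapping matches in each, 1 time in that of Chrna3 and not in that of Chrnb4. It occurs in 35.7% of all 32851 promoters of this length in the table. AGAACA, the half-site of androgen and glucocorticoid receptors, matched on neither strand of the 4 windows, and AGGTCA, a half-site of other nuclear receptors, matched 1 time, in that of Grin2c. Both strands were searched for each. They occur in 19.0% and 16.3% of all promoters. Among 33 promoters of the 27 receptor genes found in the table, 20 held the GC box, 2 AGAACA (both of Gabrb2) and 5 AGGTCA. A match is a description of the letters and not a measured site.

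Chrnb1 fell in ORX. Its values were 5.47, 7.22, 6.69, 6.61 and 5.38 CPM in intact 1 to 5, and ran from 1.29 through a median of 2.22 to 4.0 CPM in ORX. Every ORX library lay below every intact library, a separation that 2.36% of all tested genes showed in this direction. The means were 6.27 ± 0.81 and 2.51 ± 1.02 CPM (SD, n = 5 and 6). On the log2 scale the fold change was -1.32 ± 0.28, where the error is the standard error (edgeR adjusted p = 0.0145). It kept its call when any 1 library was left out (edgeR adjusted p up to 0.042).

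Chrna3 did not pass. It was at 56.1, 50.6, 43.4, 72.0 and 44.9 CPM in intact 1 to 5 and at 26.5 to 59.9 CPM in ORX, with a median of 33.5. The groups overlapped through ORX 3, the highest ORX library, which lay above intact 1, 2, 3 and 5. The log2 fold change was -0.53 ± 0.22 (edgeR adjusted p = 0.165), and without ORX 3 it was -0.73 with an adjusted p of 0.0282.

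Chrnb4 showed the same order of libraries at its ends. It was at 29.7, 24.3, 16.8, 40.5 and 27.2 CPM in intact 1 to 5, and at 11.7 to 25.4 CPM in ORX with a median of 16.3. Intact 4 was the highest and intact 3 the lowest intact library, ORX 3 the highest and ORX 5 the lowest ORX library, as for Chrna3. The log2 fold change was -0.70 ± 0.24 (edgeR adjusted p = 0.11), and the gene passed without intact 3 (0.0449) or without ORX 3 (0.045). The ratio of Chrna3 to Chrnb4 counts stayed between 1.65 and 2.59 in all 11 libraries.

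Markers of chromaffin cells were set beside these genes. The 14 markers summed to 13243 to 29909 CPM in intact and 7510 to 18276 CPM in ORX, and 12 of 14 had a fold change below 0. Of the 14, 8 had an unadjusted edgeR p under 0.05, beside 22.9% of all tested genes. Past the adjusted threshold was 1, Slc18a2, the vesicular monoamine transporter. ORX 3 was the highest ORX library for the sum as for Chrna3 and Chrnb4. The sum was highest of all in intact 1, which was second among the intact libraries for both genes. ORX 6 was second of its group in the sum (15100 CPM) with Chrna3 at 29.5 CPM. The part of chromaffin cells in the values of Chrna3 and Chrnb4 was not tested. Chrna7, which forms homomeric nicotinic channels, was at 9.48, 11.2, 18.1, 18.7 and 12.1 CPM in intact 1 to 5, and from 0.754 through a median of 7.23 to 13.9 CPM in ORX. The groups overlapped through ORX 3 and 4, and ORX 6 held 10 counts where the rest of its group held 73 to 189 (log2 -0.79 ± 0.48; edgeR adjusted p = 0.354).

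Chrna4 and Chrnb2 encode the subunits of the main brain type of nicotinic receptor. Chrna4 was at 20.6, 16.2, 22.0, 48.6 and 26.1 CPM in intact 1 to 5, and from 20.4 through a median of 34.5 to 52.6 CPM in ORX (log2 0.42 ± 0.33; edgeR adjusted p = 0.48). Chrnb2 was at 20.5, 10.9, 17.0, 23.9 and 15.99 CPM in intact 1 to 5, and from 14.4 through a median of 16.2 to 19.4 CPM in ORX (log2 -0.09 ± 0.20; edgeR adjusted p = 0.821). Both overlapped between the groups, with intact 4 the highest intact library for each. Chrnb2 shares exonic bases with Adar on the opposite strand, so its counts could include reads of Adar. Chrna2 had 2 to 39 counts in a library and did not pass (log2 -0.90 ± 0.67). Chrna5, the third gene of the cluster with Chrna3 and Chrnb4, was under the minimum, with 6, 9, 16, 16 and 5 counts in intact 1 to 5 and 7 to 14 counts in ORX. The muscle subunits Chrnd and Chrng had 0 counts in all libraries, Chrna1 4 counts in total and Chrne 10, beside 616 for Chrnb1.

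**Figure D3:**
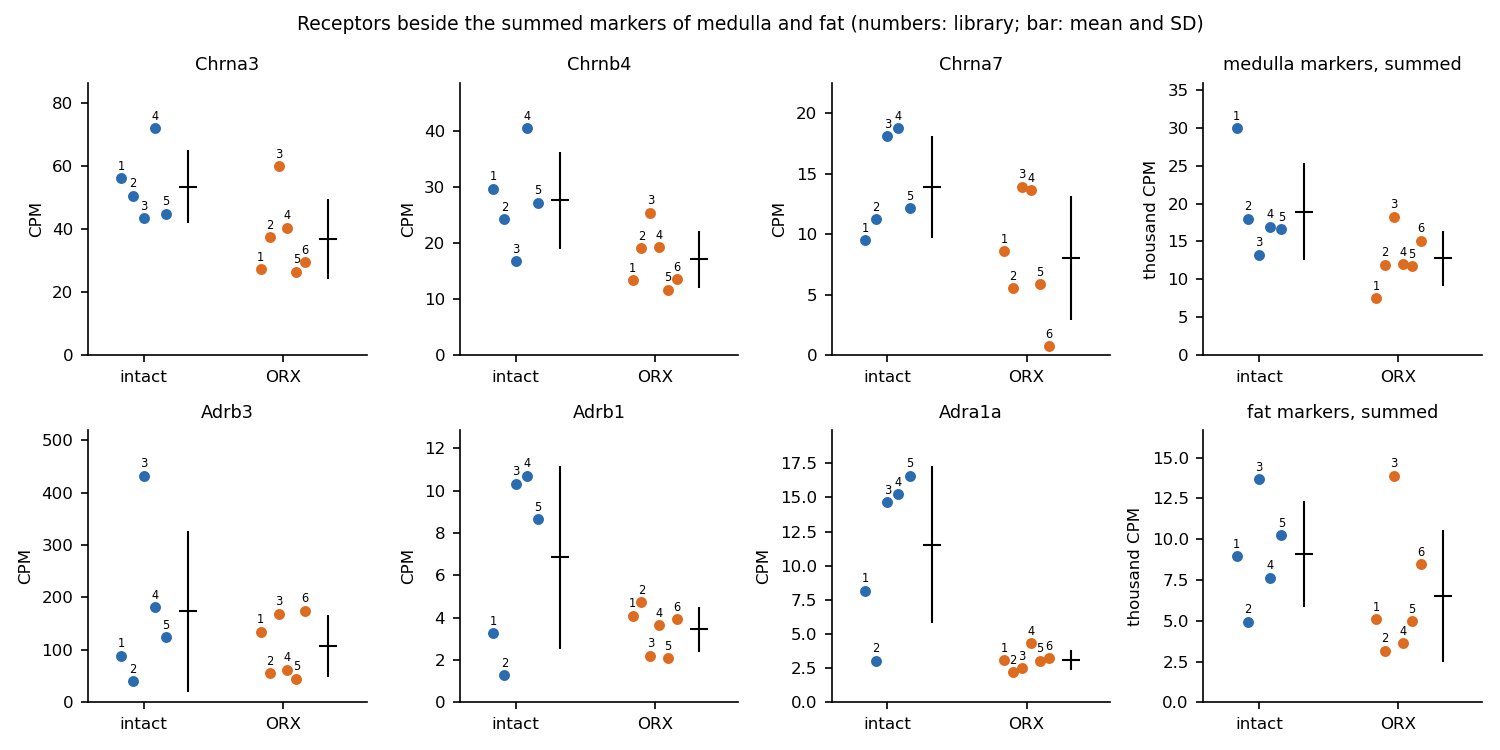
Each point is 1 library, numbered, in CPM for 6 receptor genes and in summed CPM divided by 1000 for the markers of medulla (14 genes) and fat (10 genes). A cross bar gives mean and SD. ORX 3 is the highest ORX library for Chrna3, Chrnb4 and the medulla sum, and intact 3 the highest intact library for Adrb3 and the fat sum.

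Of 16 partners of nicotinic receptors, 11 were tested, 2 rose and 1 fell: Lypd6, Ly6h and Lynx1, all of the family of toxin-like proteins that bind these receptors. Beside them, 3.03% of all tested genes were higher and 3.18% lower. Lynx1 fell from 617, 503, 224, 445 and 711 CPM in intact 1 to 5 to 102 to 200 CPM in ORX, without overlap (log2 -1.65 ± 0.26; edgeR adjusted p = 0.00303). Lypd6 rose from 1.26 to 9.92 CPM in intact to 17.3 to 64.0 CPM in ORX (log2 3.04 ± 0.52; edgeR adjusted p = 0.00446). Ly6h rose from 0.309 ± 0.15 to 1.94 ± 0.77 CPM (SD, n = 5 and 6; log2 2.59 ± 0.41; edgeR adjusted p = 0.00305). Neither riser overlapped between the groups. These calls held without any 1 library. The other 8 genes did not pass.

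Of 5 kept alpha-adrenergic receptor genes, 2 were lower in ORX. Adra1d, a receptor that couples to Gq and is known from arterial smooth muscle, lies on chromosome 2 (131545850 to 131562283, minus strand). It was at 24.0, 25.3, 27.6, 19.2 and 25.0 CPM in intact 1 to 5, and from 6.94 through a median of 9.61 to 12.3 CPM in ORX. The groups did not overlap. The means were 24.2 ± 3.07 and 9.60 ± 2.35 CPM (SD, n = 5 and 6), which is 2.52-fold lower in ORX (log2 -1.33 ± 0.19; edgeR adjusted p = 0.00133). It was called under each of the 20 alternative settings, with log2 fold changes from -1.43 to -1.22. Summed markers of smooth muscle and pericytes were at 399 to 583 CPM in intact and 171 to 406 CPM in ORX. Of these, 8 of 8 had a fold change below 0 and 1, Pdgfrb, passed. At an unadjusted edgeR p under 0.05 were 7 of 8, beside 22.9% of all tested genes. ORX 3 had the highest sum of its group, 406 CPM, and Adra1d at 7.08 CPM. The other ORX libraries had sums of 171 to 272 CPM, below every intact library. The part of these cells in the values of Adra1d was not tested. An antisense gene overlaps exons of Adra1d, and without a stated strand setting its reads cannot be told apart. In all, 16 receptor genes share exonic bases with another annotated gene. For Grin2c, Adrb3, Grin1 and Htr1b, among others, that gene is on the opposite strand, and the same limit holds.

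Adra1a, the second Gq-coupled receptor of this group, lies on chromosome 14 (66635251 to 66771168, plus strand). It was at 8.17, 3.06, 14.6, 15.2 and 16.6 CPM in intact 1 to 5 and from 2.21 through a median of 3.07 to 4.34 CPM in ORX. The ORX values were narrow, while intact 2 lay inside the ORX range. The means were 11.5 ± 5.75 and 3.07 ± 0.73 CPM (SD, n = 5 and 6; log2 -1.91 ± 0.36; edgeR adjusted p = 0.00841), and the call held without any 1 library (adjusted p up to 0.0302). Adra1b, the remaining receptor of the subfamily, was at 2.48, 3.06, 3.44, 1.26 and 5.23 CPM in intact 1 to 5, and from 1.76 through a median of 2.39 to 2.94 CPM in ORX, within the intact range (log2 -0.39 ± 0.32; edgeR adjusted p = 0.499). The Gi-coupled Adra2b and Adra2c had 2 to 21 counts in a library, with log2 fold changes of 0.54 ± 0.42 and 0.45 ± 0.42 that did not pass (edgeR adjusted p = 0.481 and 0.563). Without intact 4 the value of Adra2c was 1.07 (edgeR adjusted p = 0.0695). Intact 4 was the only intact library in which Adra2c reached the count minimum, beside 6 ORX libraries. The gene was thus kept through its ORX counts, which favours a higher value in ORX. The fit without intact 4 therefore cannot decide whether Adra2c rose. Adra2a, known as a presynaptic autoreceptor, had 1, 8, 3, 4 and 12 counts in intact 1 to 5 and 1 to 5 counts in ORX, and was not tested.

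**Figure D4:**
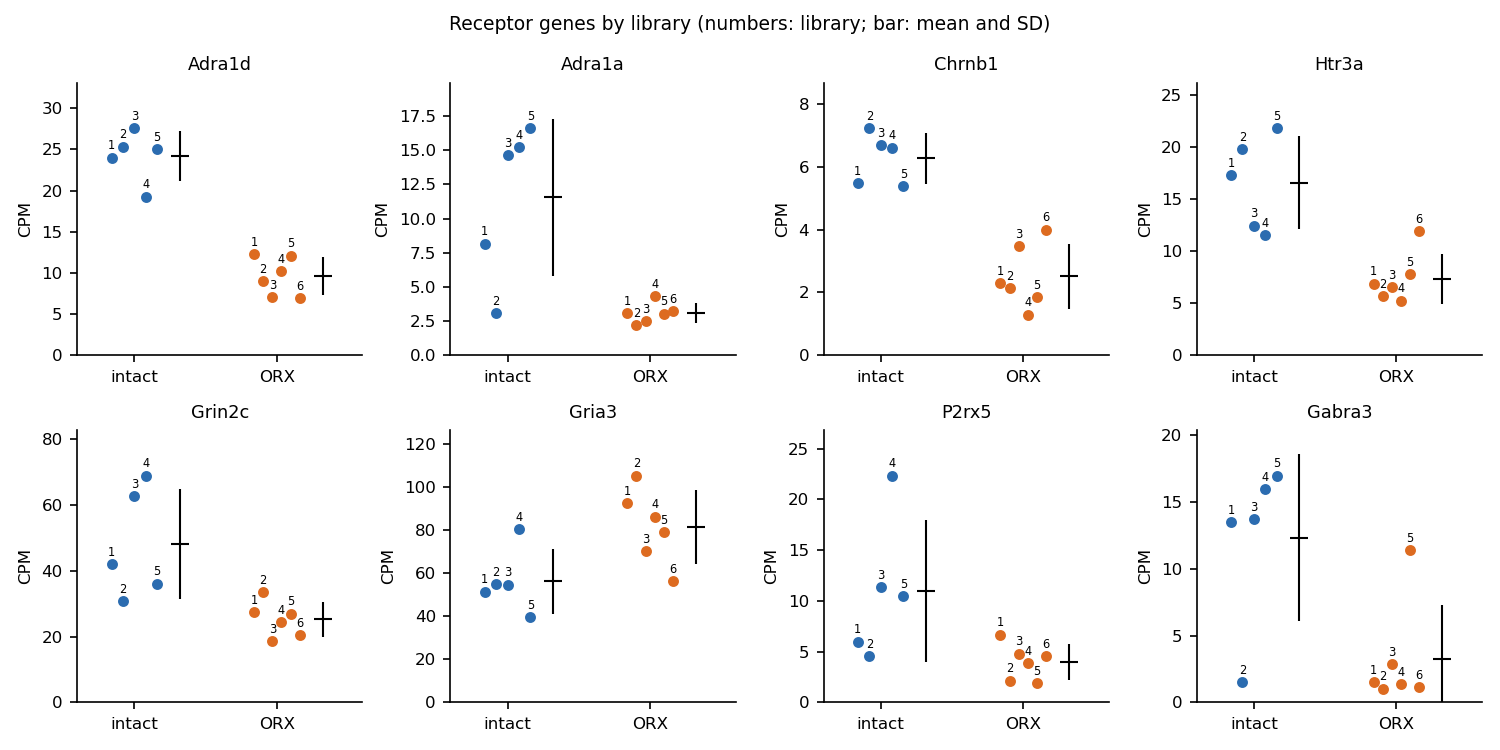
Each numbered point is 1 library in CPM (vertical axes start at 0) for the 5 receptor genes that passed and for Gria3, P2rx5 and Gabra3, which did not. A cross bar gives mean and SD, cut at 0 for Gabra3 in ORX. Adra1d and Chrnb1 do not overlap between the groups, and intact 2 and ORX 5 lie with the other group for Gabra3.

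The beta-adrenergic receptor genes Adrb3 and Adrb1, whose products raise cAMP, did not pass. Adrb3 was at 88.9, 40.1, 432, 181 and 125 CPM in intact 1 to 5 and from 45.5 through a median of 98.6 to 175 CPM in ORX. Intact 3 and 4 lay above every ORX library and intact 2 below all of them, and the log2 fold change was -0.70 ± 0.53 (edgeR adjusted p = 0.464). Without intact 3 it was -0.037 (edgeR adjusted p = 0.97). Adrb1 was at 3.28, 1.27, 10.3, 10.7 and 8.64 CPM in intact 1 to 5 and at 2.08 to 4.74 CPM in ORX (log2 -0.99 ± 0.45; edgeR adjusted p = 0.208). Intact 3, 4 and 5 were thus high and intact 1 and 2 within or below the ORX range.

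Markers of fat, which surrounds the gland and in its brown form is rich in Adrb3, were set beside these genes. Their 10 genes summed to 4945 to 13666 CPM in intact and 3163 to 13900 CPM in ORX; 10 of 10 had a fold change below 0 and 0 passed. Ucp1, the uncoupling protein of brown fat, was at 245, 57.9, 644, 387 and 847 CPM in intact 1 to 5, lowest in intact 2 as were Adra1a, Adrb1, Adrb3, P2rx5 and Gabra3. Being lowest there was not particular to these genes. Among other receptor genes lowest of the intact group in intact 2 were Grin2c (30.8 CPM), Chrna4 (16.2 CPM), Chrnb2 (10.9 CPM) and P2rx6 (7.73 CPM). In ORX 5 and 6 Ucp1 was at 517 and 550 CPM, within the intact range. In these libraries Gabra3 was at 11.4 and 1.13 CPM, the former its highest ORX value. Adra1a was at 3.04 and 3.24 CPM there, Adrb1 at 2.08 and 3.92, P2rx5 at 1.92 and 4.52, and Adrb3 at 45.5 and 175 CPM. Intact 3 had the highest intact fat sum and the highest Adrb3. Adrb1 and P2rx5 were highest in intact 4, at 10.7 and 22.3 CPM, where the fat sum was 7653 CPM. ORX 3 had the highest fat sum of all libraries, 13900 CPM, with Fabp4 at 4994 and Cfd at 4706 CPM. By mean log2 CPM of the same markers it was at 9.01, below intact 3 at 9.63. Its Ucp1, 70.7 CPM, was the lowest of the ORX group, so the measures of fat differ for this library. Adra1a, Adrb1, P2rx5 and Gabra3 were at 2.51, 2.21, 4.79 and 2.87 CPM in ORX 3, and Adrb3 was at 169 CPM. The part of fat in the values of Adra1a, Adrb1, Adrb3, P2rx5 and Gabra3 was not tested.

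Of a list of 23 genes for desensitization and cAMP signalling of such receptors, 22 were tested, 3 fell and 0 rose. Beside them, 3.18% of all tested genes were lower and 3.03% higher. The adenylyl cyclases Adcy4 (from 27.6 ± 3.33 to 12.4 ± 4.0 CPM; SD, n = 5 and 6; log2 -1.15 ± 0.22; edgeR adjusted p = 0.00803) and Adcy7 (49.6 ± 4.22 to 25.8 ± 6.81 CPM; log2 -0.94 ± 0.19; edgeR adjusted p = 0.011) fell without overlap. The receptor kinase gene Grk5 fell by 0.75 on the log2 scale (edgeR adjusted p = 0.0385), a call that held without intact 3, intact 4 or ORX 3 and ended without any other 1 library (up to 0.112). At an unadjusted p under 0.05, 12 of the 22 differed, beside 22.9% of all tested genes.

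Ionotropic glutamate receptors had the most kept genes, 10 of 16, and 1 passed. Grin2c, which encodes a regulatory subunit of the NMDA receptor, lies on chromosome 11 (115249169 to 115267243, minus strand). It was at 41.9, 30.8, 62.7, 68.9 and 36.1 CPM in intact 1 to 5, and from 18.5 through a median of 25.7 to 33.6 CPM in ORX. ORX 2 lay above intact 2, and the other ORX libraries lay below all intact ones. The means were 48.1 ± 16.8 and 25.2 ± 5.40 CPM (SD, n = 5 and 6; log2 -0.93 ± 0.23; edgeR adjusted p = 0.0291). The call ended without intact 4 (edgeR adjusted p = 0.0561), ORX 1 (0.0524), ORX 4 (0.0551) or ORX 5 (0.0604), with library totals in place of scaled sizes (0.0544) and without intact 3 and ORX 6 together (0.0658).

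Grin1, the obligatory NMDA receptor subunit, was at 27.3 to 44.2 CPM in intact and 18.1 to 36.0 CPM in ORX and did not pass (log2 -0.27 ± 0.19; edgeR adjusted p = 0.431). Grin2d had 16 to 41 counts in a library, while Grin2a and Grin2b had 3 and 18 counts over all libraries. Among AMPA receptor subunits, Gria3 (chromosome X, 41400854 to 41678601, plus strand) had, with Adra2b, the highest log2 fold change of the receptor genes, 0.54. It was at 51.4, 54.7, 54.5, 80.3 and 39.5 CPM in intact 1 to 5 and from 56.1 through a median of 82.5 to 105 CPM in ORX (log2 0.54 ± 0.19; edgeR adjusted p = 0.118). Only intact 4 lay within the ORX range, and without intact 4 the gene passed (edgeR adjusted p = 0.0459; log2 0.69). Gria2, which limits calcium entry, was at log2 -0.03 ± 0.25 and Gria4 at 0.08 ± 0.22. Gria1 had 47 counts over all libraries. The kainate receptor subunits Grik2 to Grik5 lay between log2 -0.16 and 0.41, and none passed. Grik5, the most abundant of them per length, was at 39.8, 35.3, 50.6, 55.9 and 32.2 CPM in intact 1 to 5, and from 39.8 through a median of 42.5 to 50.6 CPM in ORX, within the intact range (log2 0.05 ± 0.16; edgeR adjusted p = 0.88).

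Of 24 tested partners of glutamate receptors, 1 rose and 3 fell, beside 3.03% higher and 3.18% lower of all tested genes. Dlg2, a scaffold protein of the postsynaptic density that is also found outside synapses, rose from 96.8, 83.4, 56.1, 89.3 and 109 CPM in intact 1 to 5 to between 170 and 313 CPM in ORX, without overlap (log2 1.53 ± 0.21; edgeR adjusted p = 0.000874). Cacng8, an auxiliary subunit of AMPA receptors, fell from 3.58 ± 0.85 to 1.15 ± 0.42 CPM (SD, n = 5 and 6; log2 -1.63 ± 0.30; edgeR adjusted p = 0.00682). The scaffold genes Dlgap2 and Homer2 fell by 1.77 and 0.84 on the log2 scale (edgeR adjusted p = 0.0366 and 0.0434), without overlap. Dlgap2 was sparse, at 1.27 ± 0.51 CPM in intact and 0.364 ± 0.26 CPM in ORX (SD, n = 5 and 6). The call of Dlgap2 held without intact 3, intact 4, ORX 3 or ORX 6 and that of Homer2 without intact 3 or ORX 3, and both ended without any other 1 library (edgeR adjusted p up to 0.105 and 0.0989).

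**Figure D5:**
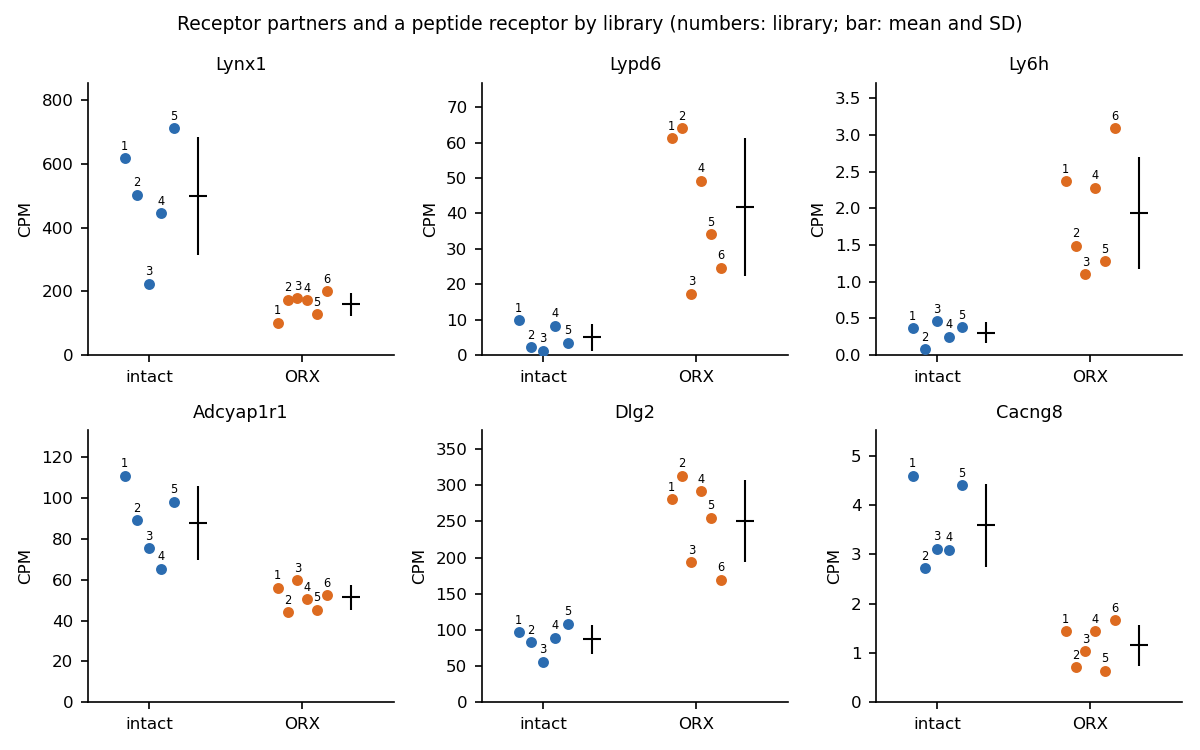
Each numbered point is 1 library in CPM (vertical axes start at 0) for the nicotinic receptor partners Lynx1, Lypd6 and Ly6h, the peptide receptor Adcyap1r1 and the glutamate receptor partners Dlg2 and Cacng8. A cross bar gives mean and SD. None of the 6 genes overlaps between the groups, beside 5.28% of all tested genes without overlap. All 6 are genes that passed the test. Bdkrb2, Trak2 and Grk5, which also passed and are not plotted, overlap.

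Among serotonin receptors 2 of 14 genes were kept. Htr3a, the only serotonin receptor subunit gene of the channel type that was kept, lies on chromosome 9 (48899213 to 48911099, minus strand). It was at 17.4, 19.8, 12.5, 11.5 and 21.8 CPM in intact 1 to 5, and from 5.25 through a median of 6.73 to 11.9 CPM in ORX. ORX 6, the highest of its group, lay just above intact 4, and all other ORX libraries lay below the intact ones. The means were 16.6 ± 4.49 and 7.34 ± 2.41 CPM (SD, n = 5 and 6; log2 -1.18 ± 0.25; edgeR adjusted p = 0.0141), and the call held without any 1 library, with an adjusted p of up to 0.0486. Its partner Htr3b had 6 counts over all libraries. Htr1b, a Gi-coupled receptor, was at 3.79, 1.19, 2.78, 5.02 and 3.94 CPM in intact 1 to 5, and from 0.226 through a median of 2.69 to 3.88 CPM in ORX. The lowest value, of ORX 6, rested on 3 counts (log2 -0.45 ± 0.49; edgeR adjusted p = 0.626).

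Of the GABA-A receptor genes 5 of 19 were kept, and none passed with edgeR. Gabra3 (chromosome X, 72432681 to 72656848, minus strand) had the lowest fold change of all 39 genes. It was at 13.5, 1.53, 13.7, 15.98 and 17.0 CPM in intact 1 to 5 and from 1.04 through a median of 1.44 to 11.4 CPM in ORX. Each group held 1 library near the level of the other, intact 2 and ORX 5. The log2 fold change was -1.95 ± 0.67 (edgeR adjusted p = 0.104), and without ORX 5 it was -2.96 with an adjusted p of 0.0105. Gabre had 25, 8, 21, 12 and 9 counts in intact 1 to 5 and 6 to 20 in ORX, at least 10 in 4 libraries, and thus lay just outside the rule. Chrna2 and Adra2c, with 10 or more in 7 libraries, were close inside it.

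Glrb, the glycine receptor beta subunit, was at 19.2, 20.6, 15.1, 19.7 and 21.3 CPM in intact 1 to 5, and from 10.3 through a median of 18.4 to 19.7 CPM in ORX, with ORX 6 the lowest (log2 -0.15 ± 0.18; edgeR adjusted p = 0.657). The alpha subunits Glra1, Glra2 and Glra3 had 0 counts and Glra4 9 counts over all libraries. Of 15 tested partners of GABA-A and glycine receptors, Trak2, a motor adaptor, fell (log2 -0.65 ± 0.17; edgeR adjusted p = 0.0337), a call that ended without intact 1, 2 or 5 or ORX 2 or 5 (up to 0.0984). The 14 others did not pass, where 6.21% of all tested genes passed. Grm7, the only metabotropic glutamate receptor kept, was at 2.84, 2.12, 2.32, 4.10 and 3.26 CPM in intact 1 to 5, and from 1.52 through a median of 3.20 to 3.76 CPM in ORX, with ORX 5 and 6 the lowest (log2 -0.05 ± 0.31; edgeR adjusted p = 0.944).

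The ATP-gated P2X channels had 5 of 7 genes kept, and none passed. P2rx4, the most abundant, was at 45.6, 41.1, 49.7, 53.6 and 35.9 CPM in intact 1 to 5 and from 45.2 through a median of 55.8 to 64.6 CPM in ORX (log2 0.29 ± 0.14; edgeR adjusted p = 0.237). P2rx7, its neighbour on chromosome 5 and a channel of macrophages, was at 5.91, 10.4, 9.47, 4.18 and 7.20 CPM in intact 1 to 5, and from 4.24 through a median of 8.21 to 11.1 CPM in ORX (log2 0.06 ± 0.29; edgeR adjusted p = 0.933). It stood beside 281 to 633 CPM in intact and 361 to 761 CPM in ORX for the sum of 8 macrophage markers. P2rx5, known as a surface marker of brown fat, was at 5.98, 4.59, 11.3, 22.3 and 10.5 CPM in intact 1 to 5 and from 1.92 through a median of 4.20 to 6.68 CPM in ORX. Intact 1 and 2 lay within the ORX range and intact 3, 4 and 5 above it. Its log2 fold change of -1.45 ± 0.41 missed the threshold (edgeR adjusted p = 0.055), and it passed with DESeq2 (adjusted p = 0.00747) and without intact 2 (edgeR adjusted p = 0.0389). P2rx6 was at 9.77, 7.73, 13.2, 9.96 and 9.70 CPM in intact 1 to 5, and from 5.69 through a median of 7.39 to 12.1 CPM in ORX (log2 -0.31 ± 0.23; edgeR adjusted p = 0.449). P2rx3, with 6 to 17 counts in a library, was at log2 0.26 ± 0.31. Both share exonic bases with an abundant gene on the opposite strand, P2rx6 with Slc7a4 and P2rx3 with Ssrp1, which had 3760 and 24369 counts over all libraries beside 1341 and 138 for the receptors.

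Receptors of other transmitter classes gave 2 changes in edgeR's test, which 6.21% of all tested genes passed. None of 9 tested muscarinic, dopamine, histamine and adenosine receptor genes passed with edgeR, with 3 at an unadjusted p under 0.05. Among them was the dopamine receptor gene Drd2, known as an inhibitory receptor of chromaffin cells, at 4.05 ± 0.55 and 2.31 ± 0.64 CPM (SD, n = 5 and 6) without overlap (edgeR adjusted p = 0.0701). With edgeR none of 7 tested P2Y and GABA-B receptor genes passed, with 1 at an unadjusted p under 0.05. Of 10 tested neuropeptide receptor genes, 5 had an unadjusted edgeR p under 0.05 and 8 had a fold change below 0. Such an unadjusted p was found for 22.9% of all tested genes. Among 10 tested neuropeptide receptor genes, Adcyap1r1, the receptor of the splanchnic transmitter PACAP, fell from 111, 88.9, 75.4, 65.3 and 98.1 CPM in intact 1 to 5 to between 44.1 and 59.7 CPM in ORX, without overlap (log2 -0.77 ± 0.15; edgeR adjusted p = 0.00949). The bradykinin receptor gene Bdkrb2 fell from 35.1 ± 21.3 to 9.44 ± 4.94 CPM (SD, n = 5 and 6; log2 -1.89 ± 0.47; edgeR adjusted p = 0.0316), a call that held without intact 3, intact 4, ORX 3 or ORX 4 and ended without any other 1 library (up to 0.0811). The part of chromaffin cells in these values was not tested.

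The 55 matched genes under the count minimum were not tested, and 47 of them never reached 10 counts in a library. Their highest count was 25, in Gabre. Counts of 0 in all 11 libraries were found for 11 genes: Gabrp, Gabrr3, Glra1, Glra2, Glra3, Grm5, Chrnd, Chrng, Htr1a, Htr1f and Htr4. Those that reached 10 counts in 1 to 4 libraries were Chrna5, Gabre, Grin3b, Gabrg3, Gabrr2, Htr2b, P2rx1 and Adra2a. Grin3b, an NMDA receptor subunit just outside the rule, had 14, 8, 11, 10 and 11 counts in intact 1 to 5 and 0 to 6 counts in ORX. Its intact libraries all lay above its ORX libraries, a separation seen after the values were known and not tested. Others with 1 or more counts included Chrna1, Chrna6, Chrna9, Chrna10, Chrnb3, Chrne, Gria1, Grik1, Grin2a, Grin2b, Grin3a, Grm2, Grm3, Grm4, Grm6, Grm8, Gabra2, Gabra4, Gabra5, Gabra6, Gabrb1, Gabrd, Gabrg1, Gabrq, Gabrr1, Glra4, Htr1d, Htr2a, Htr2c, Htr3b, Htr5a, Htr5b, Htr6, Htr7 and P2rx2. A low count at this depth does not show that a gene is silent in the gland.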

How the data were processed

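Adrenal RNA from 5 intact and 6 ORX libraries was analysed. Per the labels' protocols, TruSeq chemistry was applied to 300 ng of RNA, and both a stranded and an unstranded guide are named. Per gene symbol, the authors deposited unnormalized counts: the values are whole and their totals differ. Per the submitters' processing notes, Subread 1.5.1, bcl2fastq 1.8.4 and mm10 are named, with no role stated. No source used here gives the annotation, the strand setting or how shared reads were treated. The table stands 2 times in its file, and the first copy was read. Within groups, every pair of libraries differed by more than sampling noise (chi-square of at least 26.8 for each degree of freedom).

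Genes were kept by edgeR's filterByExpr (minimum count 10, minimum total 15), which left 14139 genes. The quasi-likelihood test of edgeR 4.0.16 (R 4.3.3) compared ORX with intact, two-sided, after TMM scaling, with Benjamini-Hochberg adjustment at 0.05 over all tested genes. The F statistic and the fold change gave the standard error. CPM here means counts per TMM-scaled library size. All 39 members passed this filter. Exon lengths, positions and overlaps are those of GENCODE M21 on GRCm38, also called mm10, matched by symbol, and promoters are those of RefSeq on GRCm38.p6. Lists of partners and markers had 205 symbols for 203 genes, and 5 symbols stand in the table under an older name.

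Values by library are given for members past the threshold, the 3 highest per length in each class and a set of fixed genes (Chrna3, Chrna5, Chrna7, Chrnb2, Chrnb4, Adra2a, Adrb1, Adrb3, P2rx4, P2rx7 and Gabre), and from the lists for at most 6 genes past the threshold. Some members are not reported here. Other members named beside a count were chosen after their values were seen. The members and lists were chosen with earlier results of these data known. In a simulation of 14139 genes from the samples' own means and depths, 4.48% of 67 genes changed 1.5-fold were recovered, 47.8% of 67 changed 2-fold and 97.0% of 66 changed 4-fold, and 1.98% of 101 calls were false. Each gene was drawn independently, without shifts shared by many genes of a library. These shares therefore need not hold for the real libraries. Alternatives were RLE scaling, library totals, other filters, DESeq2 1.42.0, limma 3.58.1 voom, a stricter threshold, the sample number as a block and left-out libraries.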

Additional observations from a re-analysis of the deposited data

Results flagged for a closer look

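In 5 of 78 sets of values, a receptor gene in a group, 1 library lay far from the others on the log2 scale by Dixon's gap test; chance flags about 1 in 20 such groups. Gabra3 was at 1.53 CPM in intact 2, against 13.5 CPM or more in the other intact libraries. Gabrb2 was at 5.09 CPM in ORX 3, against 1.43 CPM or less in the other ORX libraries, and its log2 fold change was -0.20, or -0.90 without ORX 3 (edgeR adjusted p = 0.0848). ORX 6 was the lowest of its group 3 times: Glrb at 10.3 CPM (next 17.2), Chrna7 at 0.754 CPM (next 5.52) and Htr1b at 0.226 CPM (next 2.0). ORX 6 was also the library with low counts of long transcripts. The annotated exons of Glrb, Chrna7 and Htr1b span 4655, 4505 and 4724 bases. For gene groups with median exon lengths of 4145 and 4875 bases, ORX 6 deviated by medians of 0.04 and -0.07 log2 units. For the group with the longest exons its median deviation was -0.65. Whether the low values of these genes and the shift with length are related was not tested.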

How the results depend on the processing

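Adra1d and Adra1a were called under all 20 alternative settings, Chrnb1 and Htr3a under 19 (lost at an adjusted p under 0.01) and Grin2c under 12. Of all genes, 428 were higher and 450 lower as reported. In the alternatives 750 were higher and 880 lower with DESeq2, 961 and 1095 with limma voom, and 165 and 95 at an adjusted p under 0.01. Without intact 3 and ORX 6 together 522 were higher and 696 lower. Leaving out 1 library gave 224 to 551 higher and 182 to 729 lower genes. The higher count moved by over 1.5 times without ORX 1 (268), ORX 2 (224), ORX 5 (252), intact 1 (259) or intact 5 (226), and the lower count without ORX 1 (237), ORX 2 (210), ORX 3 (729), ORX 4 (281), ORX 5 (195), intact 1 (224), intact 2 (271) or intact 5 (182). Among receptor genes, 8 were lower and 1 higher with limma voom, which added Chrnb4, Gabra3, Gria3 and P2rx5, and 2 were lower at an adjusted p under 0.01. Leaving out 1 library gave 4 to 7 lower, 0 to 1 higher (1 without intact 4) and 2 to 5 without overlap (5 without intact 2, 4 without intact 4, at most 3 without any other). The share of all tested genes without overlap was not counted for left-out libraries. Any gene separates more easily with fewer libraries, so the 2 to 5 have no background to be read against. Sample numbers did not pair the libraries (correlation of deviations -0.28 to 0.18). With the sample number as a replicate block, 222 genes were higher and 187 lower, 4 receptor genes were lower and Grin2c was not (edgeR adjusted p = 0.153). The cause of these differences was not tested. No named gene that was called changed its direction. Changes under 2-fold were mostly below detection in the simulation.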
